A study of Homo sapiens with 10 samples.

Results

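The genes described here are 30 transcriptional targets of the tumour suppressor p53, followed in U2OS cells after inhibition of the cyclin D-dependent kinases. They were chosen by name, from genes known to be activated by p53, and each was represented by its brightest probe set among those annotated to that symbol alone. Of the 30, 25 could be followed, out of 14232 named genes in the series. PPM1D, GDF15 and AEN lay only on probe sets annotated with several symbols, which the rule leaves out, and BTG2 and FDXR are not analysed here.

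U2OS is a human osteosarcoma line that keeps wild-type p53. Both groups were grown alike, seeded at 25% density and kept in serum-containing medium for 30 h. One group then received PD0332991 (palbociclib), an inhibitor of CDK4 and CDK6, for 4 h at a labelled dose of 1 mM, and the other received the vehicle DMSO for the same 4 h. The unit of that dose is doubtful, because this compound is commonly used at micromolar doses. Each group had 5 biological replicates, hybridised to Affymetrix exon arrays with gene-level values, and the array names in the labels divide the 10 arrays into set 1 (replicates 1 to 3 of both groups) and set 2 (replicates 4 and 5 of both). Whether replicates came from separate cultures or days is not stated, so the tests measure the spread between these arrays. All cells are of 1 line, so nothing here speaks to other cells.

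p53 is a transcription factor that cells hold at a low level because MDM2 marks it for degradation. Under DNA damage or other stress it escapes MDM2 and activates genes for cell cycle arrest, DNA repair, apoptosis and metabolism, along with MDM2 itself, which closes a feedback loop. Its arrest arm runs through the kinase inhibitor p21, the product of CDKN1A, and reaches the RB protein, the same protein that CDK4 and CDK6 phosphorylate. The comparison shows whether genes of the p53 program were at other levels within hours of CDK4/6 inhibition, when the drug acts on RB from another side.

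p53 binds DNA as a tetramer on paired half-sites of 10 bases. RefSeq promoter windows (GRCh38.p14, from 250 bases before to 50 after the start) were at hand for 24 of the 30 genes. An exact match to the p53 half-site consensus, which reads the same on both strands, lay in the windows of 5 of these 24 genes (20.8%) and of 8.06% of all 27305 genes with a window. A pair of adjoining half-sites with at most 2 mismatches, keeping the C and G of each core, lay in 4 of 24 (16.7%) and in 0.359% of all genes. A gene was counted when any of its windows held a match, so a gene with more windows had more chances. The searches overlap, since an exact half-site can be part of a pair. The sites of 4 measured targets are shown so that they can be read beside the values of their genes. Capitals mark the matched bases, 5′ to 3′ on the strand of the gene, with 5 flanking bases on each side.
MDM2: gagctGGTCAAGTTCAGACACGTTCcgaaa
FAS: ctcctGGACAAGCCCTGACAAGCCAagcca
DDB2: gctccAAGCTGGTTTGAACAAGCCCtgggc
DDB2, second site: gccctGGGCATGTTTggcgg
PLK2: ggacaAGACTTGCTTcccgg
Coordinates are those of the whole stretch as printed, flanks included, and distances run from the first matched base to an annotated start. The MDM2 stretch (chr12:68808918-68808947, plus strand) holds a pair with 2 mismatches, 94 bases upstream. The FAS stretch (chr10:88991304-88991333, plus strand) holds a pair with 2 mismatches, 122 bases upstream. The first DDB2 stretch (chr11:47214964-47214993, plus strand) holds a pair with 1 mismatch that begins 5 bases upstream and runs into the transcript. The second (chr11:47214985-47215004) holds an exact half-site 16 bases downstream of the start. The PLK2 stretch (chr5:58460204-58460223, minus strand) holds a single exact half-site, 132 bases upstream. A stretch upstream of an annotated start may lie inside the gene as counted from another start, which was not examined. A match is a match of letters only, and many p53 sites lie in introns or farther upstream, outside these windows.

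No p53 target passed the test for a difference between PD0332991 and DMSO (0 of 25 by limma, adjusted p under 0.05), against 0.0773% of all named genes. In the same fit 1 target was higher at an unadjusted p under 0.05, against 1.30% of named genes, and 1 was lower, against 2.52%. By sign, 15 were higher and 10 lower, and the median difference was 0.03 on the log2 scale, beside -0.02 for all named genes. For 19 of the 25 (76%) the 95% confidence interval lay inside a 1.5-fold change in either direction, against 84.8% of all named genes. The exceptions were TP53INP1, CCNG1, TIGAR, ZMAT3, SPATA18 and TRIAP1.

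Genes of the drug's known readout were lower on the same arrays. Among 12 genes of the CDK4/6, RB and E2F response, all were lower and 6 passed the test, against 0.0773% of all named genes. The list was chosen with earlier results of these data known, so it is not an independent check of the treatment. E2F2, an activating E2F factor, read 8.13, 8.24, 8.24, 8.12 and 8.10 in DMSO and 7.34, 7.19, 7.25, 7.03 and 6.98 after PD0332991 (log2, replicates 1 to 5). CCNE2, which encodes a cyclin that activates CDK2, read 7.47, 8.26, 8.46, 7.79 and 7.94 in DMSO and 6.29, 5.72, 6.41, 5.97 and 6.08 after treatment. The groups did not overlap in either gene, as in 0.913% of named genes. RNA came from whole cultures, so fewer cells in a given phase and less transcript per cell cannot be told apart. Of the markers of bone and mesenchymal cells, 8 of 12 stood above the array median, among them COL1A1, SPARC and RUNX2. The bone genes SP7 and ALPL were below it, as were TWIST1 and COL1A2. Of the blood cell markers 1 of 9 did (CD68), and of the epithelial markers 3 of 9 (KRT8, KRT18 and CLDN4), while CDH1 and EPCAM were below it. The array mean of the blood markers ran from 5.34 to 5.81 in DMSO and from 5.21 to 5.73 after treatment. For the epithelial markers the ranges were 6.89 to 7.32 and 6.93 to 7.41. Their part in the results was not tested.

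**Figure D1:**
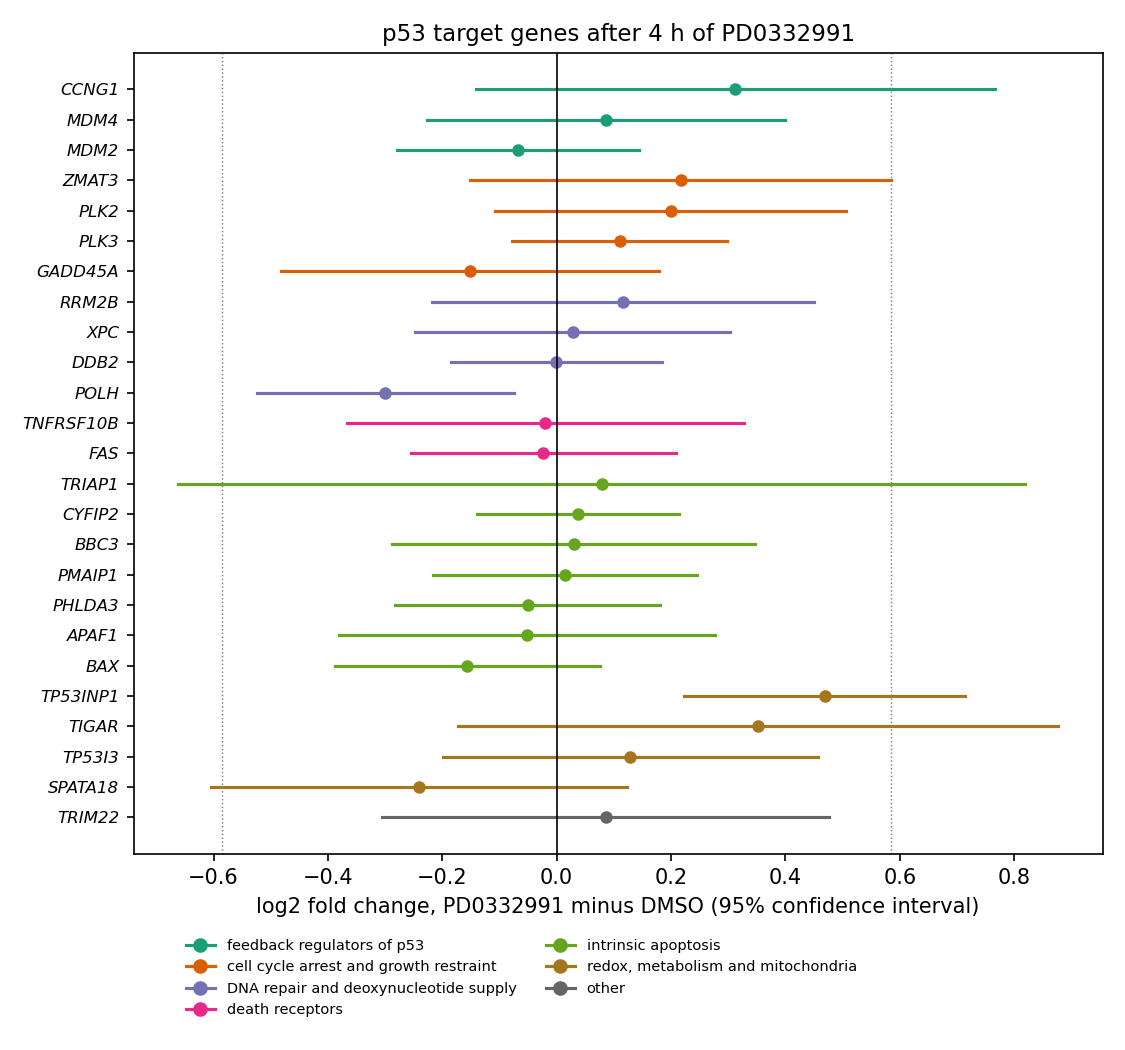
Log2 fold change (PD0332991 minus DMSO) of the 25 measured p53 targets, ordered by role, with 95% confidence intervals from limma over 5 arrays per group; dotted lines mark a 1.5-fold change. The intervals of TP53INP1 and POLH leave out 0, and no gene passed the adjustment over all probe sets.

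None of the 3 measured feedback regulators of p53 passed the test. MDM2, the ubiquitin ligase that degrades p53 and a sensitive reporter of its activity, read 9.49, 9.72, 9.61, 9.13 and 9.11 in DMSO and 9.50, 9.40, 9.58, 8.98 and 9.25 after PD0332991 (log2, replicates 1 to 5). The groups overlapped in both array sets, and the arrays of set 2 were lower than those of set 1 whatever the treatment. The difference was -0.07 ± 0.10 on the log2 scale (SE, n = 5, adjusted p = 1.00 by limma). Its 95% confidence interval ran from -0.28 to 0.14, and a level more than 1.10-fold above DMSO lay outside it. MDM4, the MDM2 relative that blocks transactivation by p53, read 7.66, 8.31, 8.28, 8.18 and 8.03 in DMSO and 8.08, 8.16, 8.29, 8.01 and 8.35 after treatment. Its groups overlapped, DMSO replicate 1 was the lowest array, and the fold change was 0.09 ± 0.14 on the log2 scale (SE, n = 5), or -0.03 without that array.

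CCNG1 encodes cyclin G1, which recruits a phosphatase to MDM2. It read 9.05, 10.23, 10.10, 9.84 and 9.84 in DMSO and 10.16, 10.15, 10.25, 9.86 and 10.19 after PD0332991. Its difference of 0.31 ± 0.20 (log2, SE, n = 5, adjusted p = 1.00 by limma) rested largely on DMSO replicate 1, which was 0.79 below the next DMSO array. Without that array the fold change was 0.10.

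Of the 4 measured targets that restrain growth, 3 were higher and 1 lower, and none passed the test. PLK2, a polo-like kinase, read 9.62, 10.22, 10.23, 9.92 and 9.96 in DMSO and 10.22, 10.19, 10.44, 9.90 and 10.19 after PD0332991, a log2 fold change of 0.20 ± 0.14 (SE, n = 5). ZMAT3, a zinc finger protein that binds RNA, read 7.80, 8.59, 8.62, 8.83 and 8.53 in DMSO and 8.77, 8.60, 8.67, 8.77 and 8.66 after treatment, a log2 fold change of 0.22 ± 0.17. In both genes DMSO replicate 1 was the lowest of the 10 arrays and the rest overlapped. Without it the fold changes were 0.08 for PLK2 and 0.05 for ZMAT3. PLK3, a related kinase, had a log2 fold change of 0.11 ± 0.08, with the treated arrays higher in set 1 (0.19) and level in set 2 (-0.01). GADD45A, a stress sensor that binds PCNA, had -0.15 ± 0.15. Its DMSO replicate 1 was high, at 9.53 against 8.87 to 9.10 on the other DMSO arrays, and without that array its fold change was -0.03.

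The 4 repair targets did not pass, and POLH stood furthest from 0 among them. POLH encodes DNA polymerase eta, which copies past ultraviolet lesions. It read 8.91, 9.18, 9.21, 8.74 and 8.73 in DMSO and 8.94, 8.85, 8.93, 8.19 and 8.37 after PD0332991. Within set 2 both treated arrays were below both DMSO arrays, and within set 1 the groups overlapped through DMSO replicate 1. POLH was 1.23-fold lower (95% confidence interval 1.05 to 1.44, limma adjusted p = 0.966), with log2 fold changes of -0.20 in set 1 and -0.46 in set 2. It did not pass the test.

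The other repair targets were closer to 0. DDB2, a subunit that recognises ultraviolet lesions, stood between 8.84 and 8.94 on the DMSO arrays and between 8.82 and 9.03 on the treated arrays. Its log2 fold change was 0.00 with an interval of -0.18 to 0.18, among the narrowest of the 25. XPC, which recognises distorted DNA in nucleotide excision repair, had 0.03 ± 0.12 (log2, SE, n = 5). RRM2B, a ribonucleotide reductase subunit that supplies deoxynucleotides for repair, had 0.12 ± 0.15, and -0.01 without DMSO replicate 1.

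**Figure D2:**
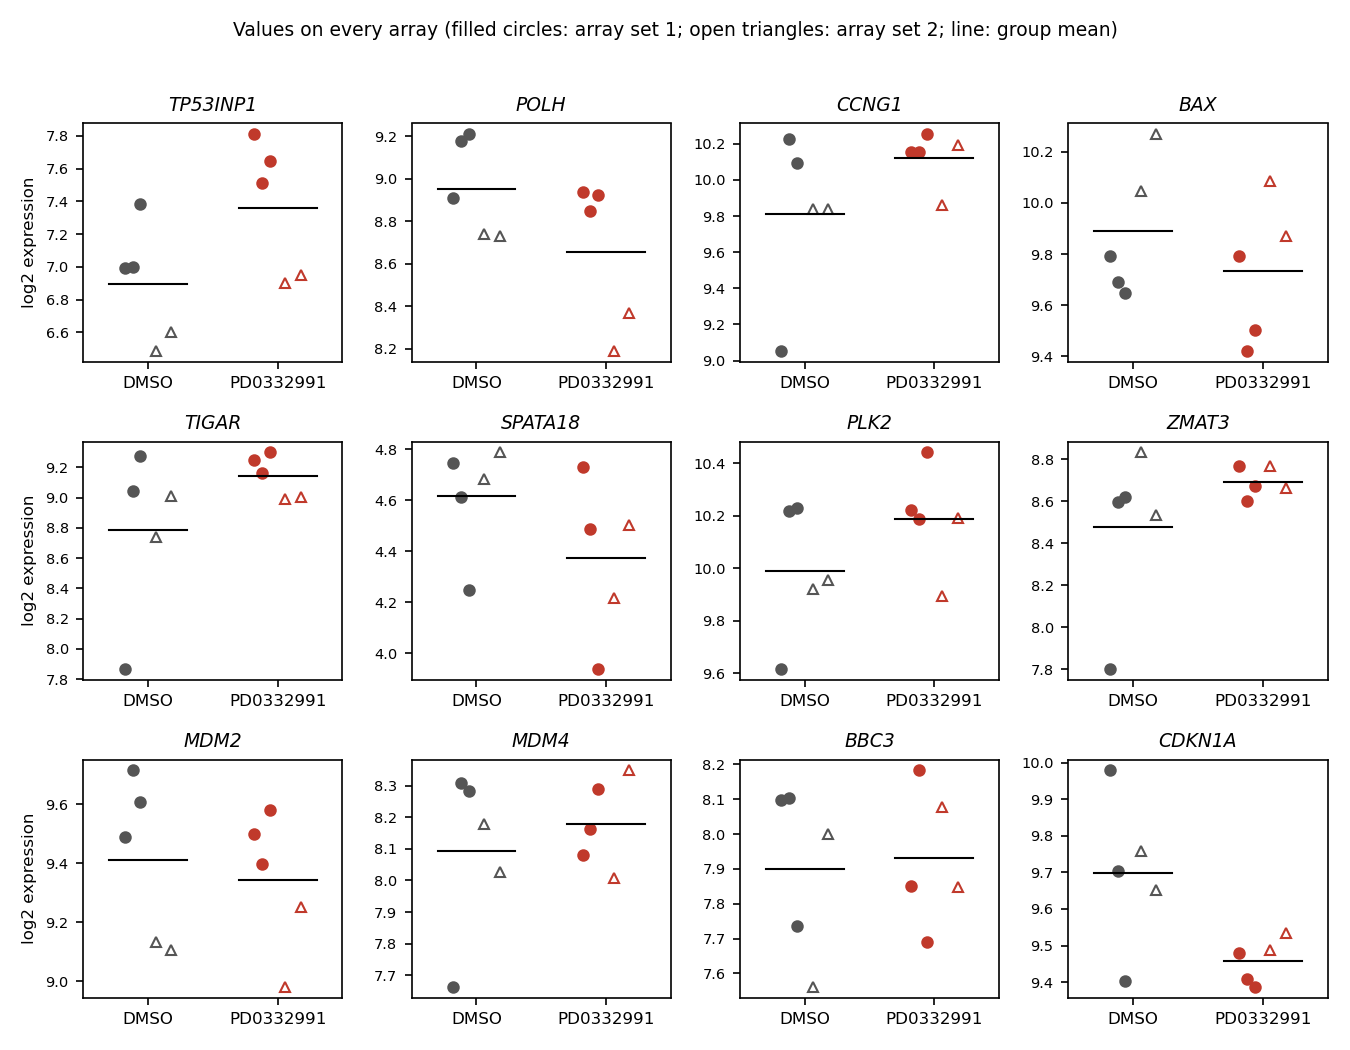
Log2 expression on each array for 11 p53 targets and CDKN1A, by treatment; filled circles are array set 1, open triangles array set 2, and lines are group means of 5 arrays. TP53INP1 is higher on every treated array than on the DMSO arrays of its own set, while MDM2, MDM4 and BBC3 overlap.

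Genes of the apoptotic arm did not pass in any case. BBC3, which encodes the death activator PUMA, read 8.10, 8.10, 7.74, 7.56 and 7.9998 in DMSO and 7.85, 8.18, 7.69, 8.08 and 7.85 after PD0332991. The groups covered the same range, and the difference was 0.03 ± 0.14 on the log2 scale (SE, n = 5, adjusted p = 1.00 by limma). PMAIP1, which encodes the related activator NOXA, had 0.02 ± 0.10. BAX, the protein that opens the outer mitochondrial membrane, read 9.79, 9.69, 9.65, 10.05 and 10.27 in DMSO and 9.79, 9.42, 9.50, 10.08 and 9.87 after treatment. Its groups overlapped in both sets, with a log2 fold change of -0.16 ± 0.10.

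The death receptor genes FAS and TNFRSF10B both had a log2 fold change of -0.02, with intervals of -0.25 to 0.21 for FAS and -0.37 to 0.33 for TNFRSF10B. DMSO replicate 1 was the lowest of the 10 TNFRSF10B arrays, at 8.46, and without it TNFRSF10B had -0.14 while FAS stayed at -0.02. APAF1, the scaffold of the apoptosome, had -0.05 ± 0.15 (SE, n = 5), with 0.11 in set 1 and -0.30 in set 2, and -0.17 without DMSO replicate 1. PHLDA3, an inhibitor of AKT, had -0.05 ± 0.10, and -0.02 without that array. CYFIP2, a subunit of the WAVE actin regulatory complex, stood between 8.83 and 8.98 on all 10 arrays and had 0.04 ± 0.08.

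TRIAP1, a small protein that restrains apoptosis, was the most scattered of the 25. It read 7.41, 7.75, 7.82, 6.67 and 6.76 in DMSO and 7.10, 6.38, 7.92, 7.71 and 7.71 after PD0332991. In set 2 both treated arrays were above both DMSO arrays (log2 fold change 0.99), and in set 1 the groups overlapped around a lower mean (-0.53). The difference between the sets did not pass limma's interaction test (adjusted p = 1.00), which called 0 of 21980 probe sets. By that test the unadjusted p of TRIAP1 was 0.015, and 1.24% of named genes were under 0.05. The joint interval for TRIAP1 ran from -0.66 to 0.82, too wide to bound a change of 1.5-fold.

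The metabolic and mitochondrial targets held the furthest value. TP53INP1, a stress protein that restrains proliferation and takes part in autophagy, read 6.996, 6.998, 7.38, 6.49 and 6.60 in DMSO and 7.81, 7.51, 7.64, 6.90 and 6.95 after PD0332991. Every treated array was above every DMSO array of its own set, but over all 10 arrays the groups overlapped, because the treated arrays of set 2 were below the DMSO arrays of set 1. No target was free of overlap over all 10 arrays, against 0.913% of named genes. TP53INP1 alone among the 25 had such an order upward, against 0.899% of named genes, and 0 of 25 had it downward, against 1.70%. It was 1.38-fold higher (95% confidence interval 1.17 to 1.64, limma adjusted p = 0.437), with log2 fold changes of 0.53 in set 1 and 0.38 in set 2. It did not pass the test over all probe sets. Without DMSO replicate 1 its log2 fold change was 0.43.

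TIGAR, a phosphatase that slows glycolysis, read 7.87, 9.05, 9.27, 8.74 and 9.01 in DMSO and 9.25, 9.16, 9.30, 8.99 and 9.004 after PD0332991. Its log2 fold change of 0.35 ± 0.24 (SE, n = 5) came down to 0.10 without DMSO replicate 1, the lowest array. TP53I3, a quinone oxidoreductase, had 0.13 ± 0.15, and -0.01 without that array. SPATA18, which takes part in mitochondrial quality control, read 4.75, 4.61, 4.25, 4.69 and 4.79 in DMSO and 4.73, 4.49, 3.94, 4.22 and 4.50 after treatment. These values lay below the lower quartile of the arrays (5.05 to 5.44), where probe signal can be close to background, and its fold change of -0.24 ± 0.16 is that of a dim gene. TRIM22, a TRIM family protein also induced by interferon, had 0.09 ± 0.18.

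**Figure D3:**
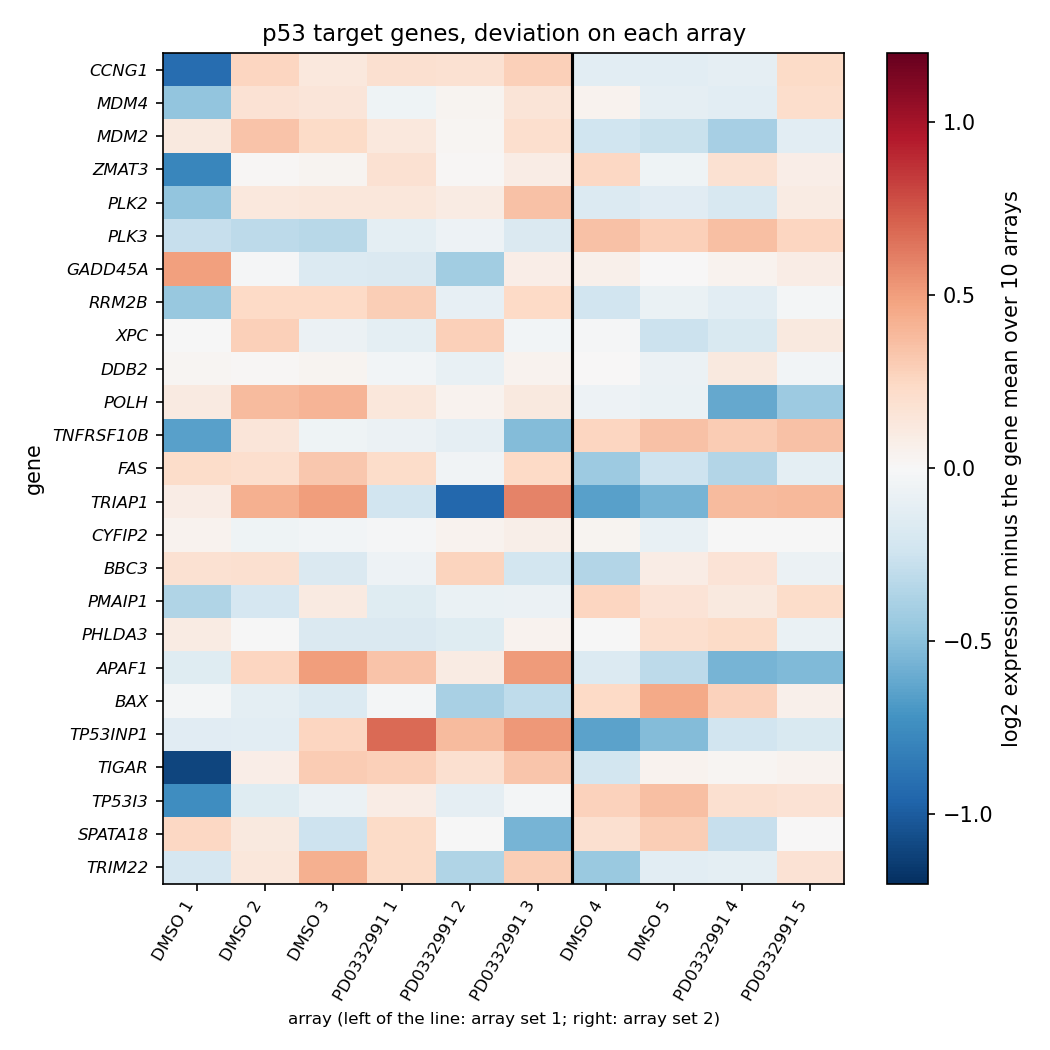
Deviation of each p53 target from its own mean over the 10 arrays (log2, colour), with arrays in columns and array set 1 left of the line. DMSO replicate 1 is the darkest blue column for CCNG1, TIGAR, ZMAT3 and TP53I3, and FAS and MDM2 differ between the sets more than between treatments.

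More of these genes were called between array sets than between treatments. With treatment in the model, 6 of the 25 differed between set 2 and set 1 (limma, adjusted p under 0.05), against 3.43% of named genes. Lower in set 2 were TP53INP1 (-0.66 on the log2 scale, limma adjusted p = 0.0165), APAF1 (-0.65, 0.0464), POLH (-0.49, 0.0329), FAS (-0.48, 0.0388) and MDM2 (-0.43, 0.0418), and PLK3 was higher (0.53, 0.0143). The labels do not say what separates the sets, and both treatments are in each set, so the fold changes above are taken within sets.

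DMSO replicate 1 stood apart from the other arrays, with a mean correlation of 0.963 with them where the others had 0.979 to 0.984. It was the lowest of all 10 arrays for 9 of the 25 p53 targets, a count for which no share over all named genes was computed. For 9 of the 25 it was more than 0.5 (log2) below the mean of DMSO replicates 2 and 3. That is a larger share than the 14.2% of named genes, but the shares were not matched for brightness. Between its quartiles this array had the narrowest spread, 3.18 (log2) against 3.32 to 3.68 on the others. The targets also stood higher on the arrays, at a median percentile of 74.5 against 53.2 for all named genes. Whether these account for the larger share was not tested. Leaving out DMSO replicate 1 moved 10 fold changes by over 0.1, and TP53I3, RRM2B, MDM4, PMAIP1 and DDB2 then changed sign near 0. The count of higher targets was 12 without it, and the median log2 fold change was -0.01. TP53INP1 and POLH kept their direction and came to 0.43 and -0.37, while BBC3 came to 0.08 and TRIM22 to 0.02.

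**Figure D4:**
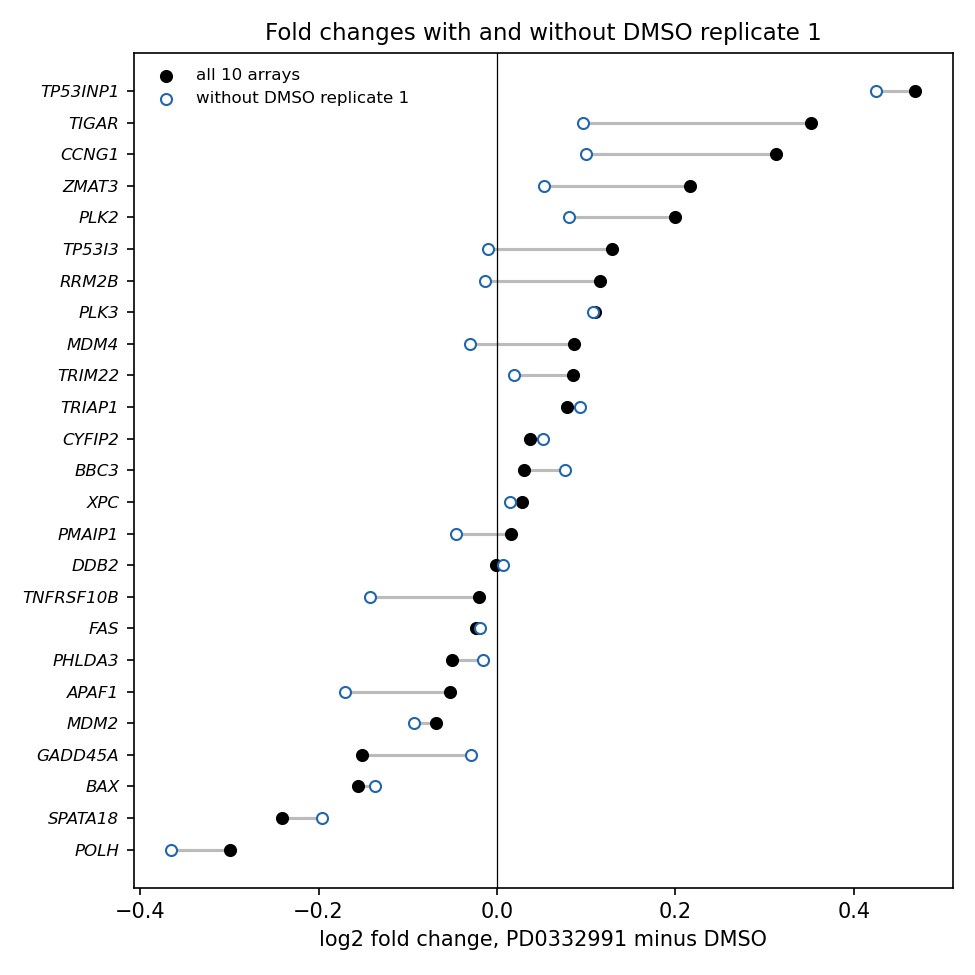
Log2 fold change of each p53 target over all 10 arrays (filled) and without DMSO replicate 1 (open). TIGAR, CCNG1, ZMAT3 and PLK2 shift toward 0, while TP53INP1 and POLH stay at the ends of the range.

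No gene of the wider pathway passed the test either, against 0.0773% of all named genes. Lists this short may hold none at that share. Among 41 measured targets of p53 outside the 30 (48 listed), 16 were higher and 25 lower. Their median difference was -0.04 on the log2 scale. At an unadjusted p under 0.05 by limma, 1 of the 41 was higher (1.30% of named genes) and 4 were lower (2.52%). CDKN1A, which encodes p21, read 9.98, 9.70, 9.40, 9.76 and 9.65 in DMSO and 9.48, 9.41, 9.39, 9.49 and 9.53 after PD0332991. The groups overlapped through DMSO replicate 3, and the difference was -0.24 ± 0.11 on the log2 scale (SE, n = 5, adjusted p = 1.00 by limma), with an upper bound of 0.01. DMSO replicate 1 was the highest CDKN1A array, and without it the difference was -0.16. The 4 with the smallest p were NOTCH1, a receptor, at -0.31 ± 0.09, TNFAIP8, a regulator of cell death, at -0.27 ± 0.11, SFN, the 14-3-3 sigma protein, at -0.24 ± 0.10, and SESN2, a sestrin that inhibits mTORC1, at 0.21 ± 0.08. NOTCH1 read 7.86, 7.80, 7.90, 7.90 and 7.80 in DMSO and 7.63, 7.42, 7.64, 7.60 and 7.44 after treatment. Its groups did not overlap, as in 0.913% of named genes, and its limma adjusted p was 0.705. SESN2 read 8.45, 8.44, 8.47, 8.16 and 8.22 in DMSO and 8.72, 8.56, 8.78, 8.37 and 8.35 after treatment, higher within each set, at an adjusted p of 1.00 by limma. Of named genes, 0.899% were higher within each set.

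Of 28 measured p53 relatives and upstream regulators (37 listed), 10 were higher and 18 lower, with a median of -0.03 and none past the test. At an unadjusted p under 0.05 by limma, 0 of the 28 were higher (1.30% of named genes) and 2 lower (2.52%). TP73, a p53 relative that binds the same sites, read 8.36, 7.92, 7.88, 7.80 and 8.02 in DMSO and 7.71, 7.78, 7.51, 7.71 and 7.45 after PD0332991. All treated arrays were below all DMSO arrays, and 0.913% of named genes had no overlap in either direction. TP73 was 1.28-fold lower (95% confidence interval 1.06 to 1.55, limma adjusted p = 0.968), which did not pass. DMSO replicate 1 was its highest array, and without it the log2 fold change went from -0.36 to -0.28. PPP1R13B, which encodes the p53 cofactor ASPP1, also had no overlap, with treated arrays at 6.85 to 6.99 and DMSO arrays at 7.07 to 7.34, and a log2 fold change of -0.26 ± 0.09. TRIM24, a ligase for p53, had -0.21 ± 0.11, and ATR, a kinase that signals replication stress to p53, had 0.29 ± 0.17. DMSO replicate 1 was the lowest ATR array, at 6.92, and without it ATR had 0.14. Genes repressed through p21 and the DREAM complex (19 of 22 measured) were higher in 8 and lower in 11, with a median of -0.05 and none past the test. Of these 19, limma gave 0 higher and 2 lower at an unadjusted p under 0.05, beside the same 1.30% and 2.52% of named genes.

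**Figure D5:**
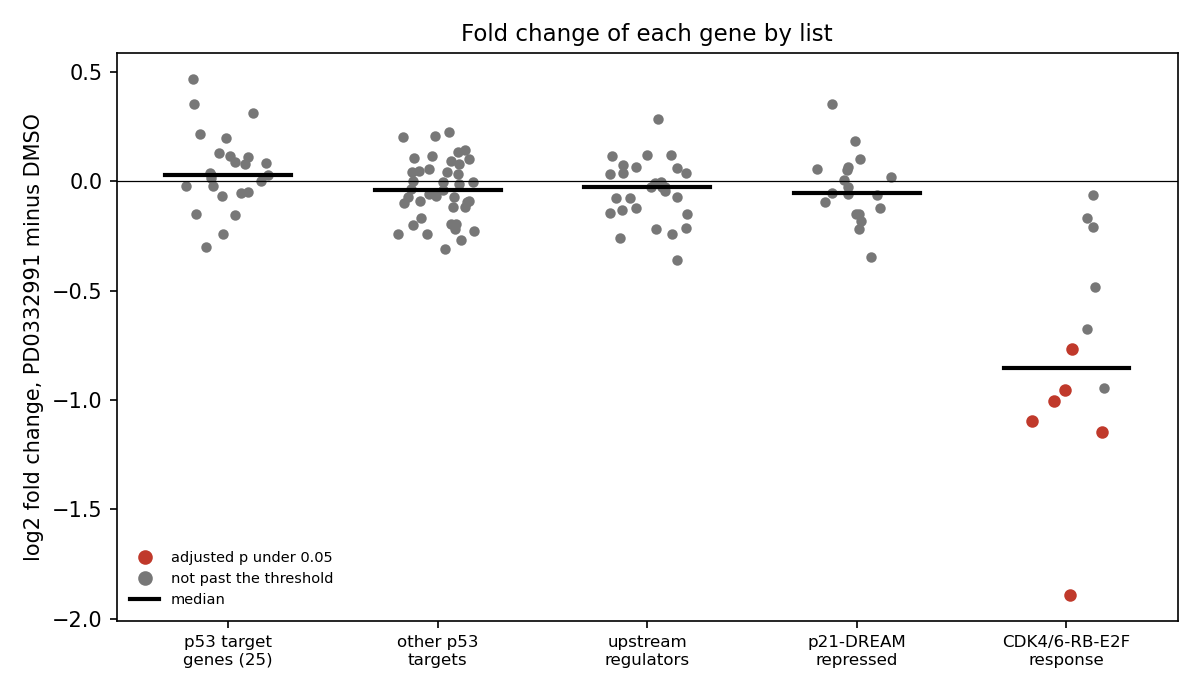
Log2 fold change of each gene (points) and the median (line) for the 25 p53 targets, 41 other p53 targets, 28 upstream regulators, 19 genes repressed through p21 and DREAM, and 12 genes of the CDK4/6, RB and E2F response. Red points passed limma's adjusted threshold of 0.05, and all 6 belong to the last list.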

How the data were processed

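The values are on the log2 scale as the authors deposited them, per gene-level probe set. RMA, Partek and the build hg18 are named in the submitters' processing notes, without versions. RMA compresses the fold changes of dim genes, and detection calls were not used here. Array medians lay between 6.95 and 7.06, and precision is limited by the small number of arrays. Of 21980 probe sets, 14432 carried 1 symbol, 2408 several and 5140 none in the platform annotation. A RefSeq table matched all but 28 of the single symbols through Entrez identifiers and changed 0.

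A 2-sided linear model with terms for treatment and array set was fitted to all probe sets (limma 3.58.1, R 4.3.3), with moderated variances and Benjamini-Hochberg adjustment at 0.05. The genes and lists were chosen with earlier results of these data known. All measured targets are named. Values on every array are given for the 8 with the smallest p, for MDM2, MDM4, BBC3 and CDKN1A, for TRIAP1 (chosen after its values were seen), and for E2F2 and CCNE2. The rule also listed PPM1D and GDF15. From the other p53 targets and from the upstream regulators the 4 genes with the smallest p are named, from the genes repressed through p21 and DREAM none, and other genes were chosen after their values were seen. Same-numbered arrays of both groups had deviations from their group means that correlated at 0.04 to 0.54. Those values include the difference between array sets, and with it removed they ran from -0.05 to 0.40. They do not settle whether the numbers mark pairs, and the main model did not take them as pairs. The procedure was tested on simulated data. Figures used Matplotlib 3.10.9.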

Additional observations from a re-analysis of the deposited data

Results flagged for a closer look

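Each of the 25 p53 targets was examined for an array far from the rest of its group, 50 groups of 5 arrays in all, where chance alone would mark about 1 group in 20. CCNG1 was marked in the treated group, where PD0332991 replicate 4 read 9.86 and the other treated arrays read 10.15 to 10.25 (log2). It was the only group marked, so DMSO replicate 1 was marked in 0 groups. Each group held both array sets, and a difference between sets can widen its range and hide a distant array.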

How the results depend on the processing

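None of the 25 p53 targets passed the test in the main analysis or in any of 21 alternatives, which dropped or replaced array set, renormalized, weighted or left out arrays, used 1 array set, left out dim probe sets, averaged probe sets or changed the variance model, nor at a threshold of 0.1. The lowest adjusted p of any target was 0.117. Leaving out both arrays numbered 1, and leaving out DMSO replicate 1 for genes of the wider lists, were added after the data were seen. The count of higher targets ran from 12 to 17 and of lower targets from 8 to 13, the same ranges as with 1 array left out, and the median log2 fold change from -0.02 to 0.08 (-0.01 to 0.08 with 1 array left out). For 10 targets the sign held in every alternative, TP53INP1 (0.38 to 0.53) and POLH (-0.46 to -0.20) among them, and for 15 it changed at least once. Some alternatives could not move a target's fold change and say nothing about its sign. These dropped or replaced array set, changed the variance model, left out dim probe sets or averaged probe sets, of which each target had 1. Taken over all 10 arrays without regard to set, 0 targets had groups without overlap, since TP53INP1 then overlapped, and 0.913% of named genes had such groups. With 1 mismatch allowed, a half-site lay in the promoter windows of 14 of 24 genes (58.3%), near the 50.1% of all genes. A replicate block in place of array set leaves the fold changes, and so the count of 15 higher, unchanged in this balanced design. With that block 0 targets passed, while 2 of all probe sets passed where 11 had. That number was 63 with array weights, 0 in either set alone, and 2 to 23 with 1 array left out (23 without DMSO replicate 1).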
